A study of Saccharomyces cerevisiae with 12 samples.

Results

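The 38 genes described here encode the histone acetyltransferases and histone deacetylases of baker's yeast, their partners in complexes, and the proteins of silent chromatin. They were taken from a list of gene symbols, each matched to the probe sets annotated to that gene alone, and all 38 were found among the 5656 genes with at least 1 such probe set. Where a gene had more than 1, the one with the highest mean of the 12 arrays was taken. This choice arose only for TRA1, which had 13 probe sets, and the other 37 genes had 1 each.

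The study asked what changing the native route to acetyl-CoA in the cytosol does to gene expression in yeast. Total RNA of 12 glucose-limited chemostat cultures, in 4 groups of 3, was read on 1 Affymetrix 3' expression array each. The first group was the reference strain CEN.PK113-7D (MATa MAL2-8C SUC2) grown with air, and the second was the same strain grown without oxygen. The third group, grown with air, was IMZ305, built in the CEN.PK102-12A background, which is also MATa MAL2-8C SUC2 and has the mutant markers ura3-52 and his3-Δ1 and a mutant allele of LEU2. In IMZ305 the acetaldehyde dehydrogenase genes are removed by ald2-ald3::loxP-LEU2-loxP together with ald4::loxP-HIS3-loxP, and by ald5::loxP-KanMX4-loxP together with ald6::loxP-hphNT1-loxP. It also carries acs2::loxP-natNT2-loxP and acs1::AmdS, which remove both acetyl-CoA synthetase genes, and the plasmid pUDE151 with URA3 and eutE of Escherichia coli, an acetylating acetaldehyde dehydrogenase. The fourth group, grown without oxygen, was IMZ383, of the same CEN.PK102-12A background, with acs2::loxP-HIS3-loxP and acs1::loxP-LEU2-loxP. Its plasmid pUDE204 bears URA3 with pflB and pflA of E. coli, for pyruvate formate-lyase and its activating enzyme. The dilution rate was 0.1 per h in every culture, at 30 °C and a pH of 5.0. Glucose in the feed was 7.5 g/L with air and 20 g/L without oxygen, where 10 mg/L ergosterol and 420 mg/L Tween 80 were added, so that oxygen, feed glucose, sterol and Tween 80 cannot be told apart. Each engineered strain differs from the reference in its background, markers and plasmid as well as in its acetyl-CoA route, and these cannot be told apart either.

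Histone acetyltransferases move the acetyl group of acetyl-CoA onto lysines of histones, and histone deacetylases take it off again. In yeast, SAGA and NuA4 are the large acetyltransferase complexes that activators bring to promoters, the Rpd3, Hda1 and Set3 complexes remove acetyl groups at promoters and in gene bodies, and the sirtuins, led by Sir2, do so with NAD+ as a co-substrate. Sir2, Sir3 and Sir4 together keep the silent mating loci and the ends of chromosomes closed. Acetyl-CoA for histones comes in this yeast from the nuclear and cytosolic pool, which Acs1 and Acs2 normally supply.

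The strain labels were borne out by the deleted genes. ACS2 read 648 to 864 signal units in the aerobic and 559 to 652 in the anaerobic reference, 1.4 to 2.1 in IMZ305 and 3.3 to 6.1 in IMZ383, and ALD6 read 0.1 on all 3 IMZ305 arrays. Signals are in linear units, which the authors had scaled to a common level per array, and the highest of 19 non-target control probe sets read 2.6 to 7.5, which is taken as background. On that measure 35 of the 38 genes were above background on all 12 arrays, HOS1 and HST3 on 11 and SDS3 on 6. The 3' probe set of ACT1 over its 5' probe set, a ratio used to judge RNA quality, ran from 1.67 to 1.90 on the 3 arrays of the anaerobic reference and from 1.37 to 1.47 on those of IMZ383. In the aerobic groups this ratio overlapped, at 1.24 to 1.96 in the reference and 1.61 to 1.65 in IMZ305. The hybridization control BioB read 7.9 to 12.0 on aerobic reference cultures 1 and 2 and on all 3 IMZ305 cultures, and 42.9 to 86.2 on the other 7 arrays. Aerobic reference culture 3 was the highest of its group for 26 of the 38 genes and for 36.7% of all probe sets. With 3 cultures a group, the number of arrays limits the precision, and p-values measure the spread between these cultures.

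**Figure D1:**
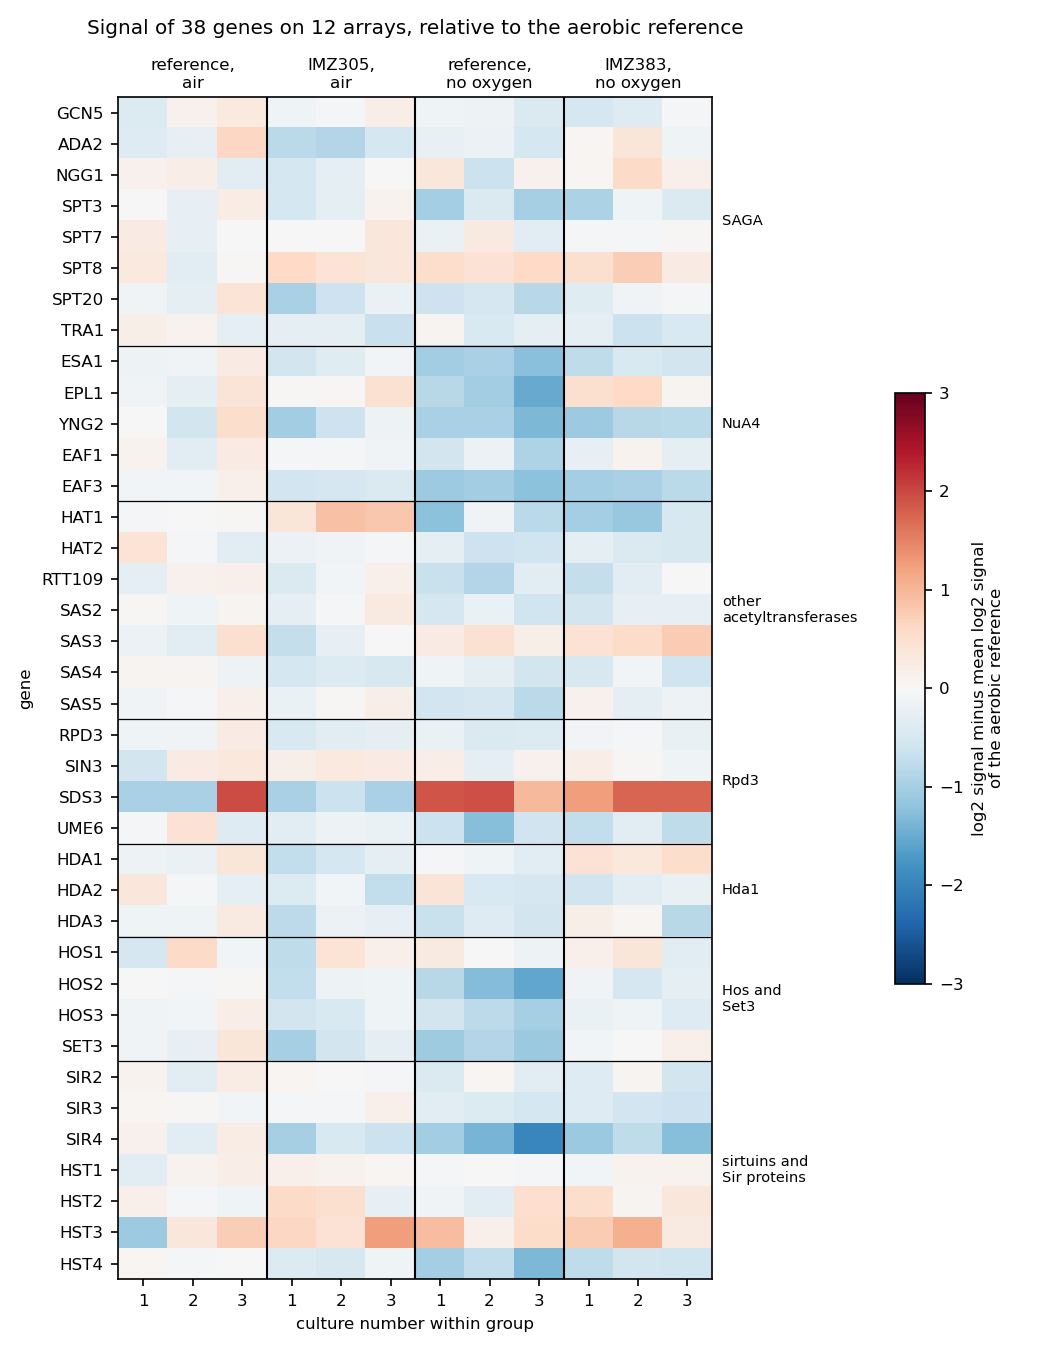
Signal of the 38 genes (rows, grouped by complex) on the 12 arrays (columns, 3 cultures in each of 4 groups), as log2 signal minus the mean log2 signal of the gene in the aerobic reference, from blue (lower) to red (higher). The genes ESA1, EPL1, YNG2 and EAF3 of NuA4 are blue in the anaerobic reference, and SET3 and EPL1 are white to light red in IMZ383. SDS3, for which array and group cannot be told apart, reads 0.3 to 1.4 on 5 aerobic arrays and 8.5 on the other one.

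In the reference strain, cultures without oxygen had less transcript of acetyltransferase and deacetylase genes of several complexes than cultures with air. Of the 38 genes, 13 fell and 1, SPT8, rose at an adjusted p under 0.05 (limma, Benjamini-Hochberg over all 9275 probe sets). Of the 5 genes grouped under NuA4 4 fell; TRA1, which NuA4 shares with SAGA, is counted with SAGA and was not called. Of the 4 genes of the Hos and Set3 group 3 fell, and the strongest fall was that of SIR4, the scaffold of silent chromatin. The 14 called genes are 36.8% of the 38, and 34.2% of all probe sets were called. In the downward direction the share was 34.2% against 23.3% of all probe sets, or 29.5% of the 7015 probe sets with a mean signal above 6.9. In the upward direction it was 2.63% against 11%. In 19 of the 38 genes (50%) every anaerobic array read below every aerobic one, against 28.8% of all probe sets.

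The size of this lead depended on how arrays were scaled. The median log2 change of the 38 genes was -0.43, and that of all probe sets -0.18. With quantile normalization the medians were -0.05 and 0, and with arrays centred on their median -0.03 and 0.13. The number of genes below 0 was 31 with the authors' scaling, 23 with quantile normalization and 20 with centring. Over all probe sets, the share of calls that were rises went from 32.1% to 48.9% and 64.1%. SPT8, ESA1, EPL1, EAF3, HOS2, SET3, SIR4 and HST4 were called in the same direction under all 3 scalings, and SPT3, YNG2, SAS5, UME6, HOS3 and SIR3 were not called under at least 1 of them. ESA1, EPL1, EAF3, HOS2, SET3, SIR4 and HST4 were called under all 14 other settings and on leaving out any of the 12 arrays.

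**Figure D2:**
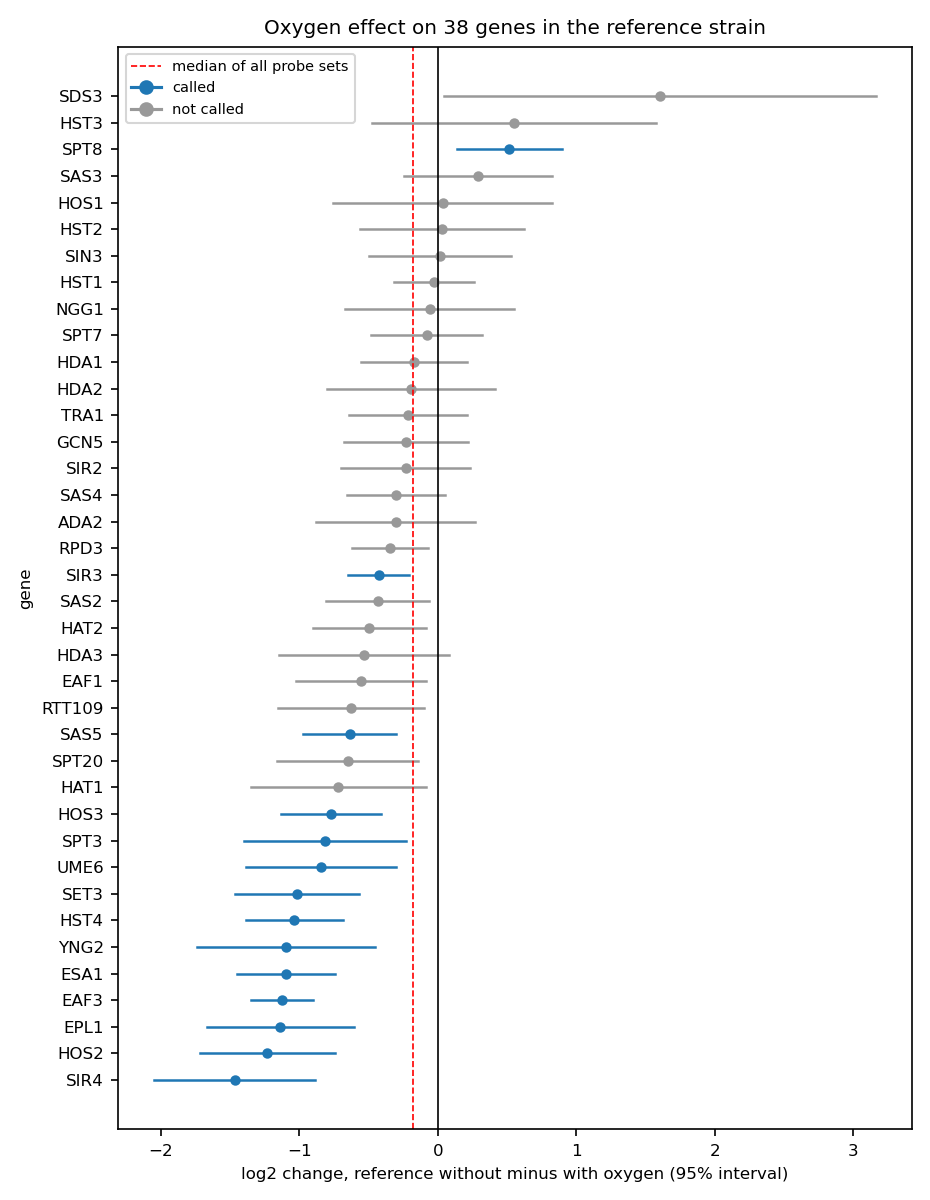
Log2 change of each of the 38 genes in the reference strain, without minus with oxygen (x axis), with its 95% interval from the limma fit; genes are ordered by change, called genes are blue, and the dashed red line is the median of all probe sets (-0.18). The 13 genes called as lower lie between -1.47 (SIR4) and -0.43 (SIR3), and SPT8 is the 1 called gene to the right of 0.

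SAGA acetylates histone H3 through Gcn5 and also holds the Spt proteins that contact the TATA-binding protein. Few of its genes were called without oxygen: 1 of 8 fell, 1 rose, and their median log2 change was -0.22. SPT3, which contacts the TATA-binding protein, read 47.7, 39.8 and 55.0 with air and 23.3, 34.9 and 23.6 without. The groups did not overlap, and the log2 change was -0.81 ± 0.26 (SE), an adjusted p of 0.0371 by limma. That call ended on leaving out any of aerobic reference cultures 1 and 3, anaerobic reference cultures 1 and 3, IMZ305 culture 2 and IMZ383 culture 3. SPT8, the subunit that sets SAGA apart from its shorter form SLIK, read 69.7, 45.5 and 59.0 with air and 82.4, 77.5 and 86.0 without. All anaerobic values were the higher ones (log2 change 0.52 ± 0.17, limma adjusted p = 0.0411), but the call held only on leaving out aerobic reference culture 1, IMZ383 culture 2 or IMZ383 culture 3, and ended without any other single array. The catalytic subunit GCN5 read 35.7, 51.4 and 57.6 with air and 43.5, 42.8 and 35.2 without, and these ranges overlap. Its log2 change of -0.23 had a 95% interval from -0.68 to 0.22.

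TRA1, which docks activators for both SAGA and NuA4, was not called in any comparison by its representative probe set. That probe set read 214.6 to 300.6 with air and 193.9 to 279.2 without oxygen in the reference. Its log2 changes were -0.22 for oxygen, -0.41 in IMZ305 and -0.24 in IMZ383. The other 12 probe sets of TRA1 had means of 1.1 to 86.2 units. Of these, 1 was called higher in IMZ383, but it read at most 3.0 units on any array, under the background.

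NuA4 acetylates histones H4 and H2A and its catalytic subunit Esa1 is essential for growth. ESA1 (YOR244W) read 87.4, 90.6 and 115.3 in the aerobic reference and 46.9, 49.3 and 40.5 in the anaerobic reference. The groups lay far apart, and the fall was 2.14-fold (log2 -1.10 ± 0.16, limma adjusted p = 0.000624). EAF3 (YPR023C), a chromodomain protein that NuA4 shares with an Rpd3 complex, read 798.7, 801.6 and 931.7 with air and 394.1, 409.4 and 357.1 without. It fell 2.18-fold (log2 -1.12 ± 0.10, limma adjusted p = 3.16e-05). EPL1 (YFL024C), which joins the catalytic module of NuA4 to the rest, read 24.8, 21.7 and 34.7 with air against 14.8, 12.8 and 9.3 without. Again no arrays overlapped, and the fall was 2.20-fold (log2 -1.14 ± 0.24, limma adjusted p = 0.00497). YNG2, a plant homeodomain subunit of the same module, read 103.1, 69.8 and 145.2 with air and 51.9, 51.7 and 40.0 without. Its fall of 1.09 on the log2 scale (limma adjusted p = 0.0157) was no longer called without anaerobic reference culture 3. EAF1, the scaffold of NuA4, read 101.8, 75.0 and 112.5 with air and 64.4, 83.5 and 50.4 without, overlapping ranges that were not called (log2 -0.55).

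The SAS genes encode the Sas2 complex, which acetylates histone H4 and limits the spread of silent chromatin, and Sas3, the catalytic subunit of NuA3. SAS5 of the Sas2 complex read 41.8, 43.1 and 50.0 with air and 30.0, 31.5 and 25.4 without oxygen. These groups did not overlap, and it fell by 0.64 on the log2 scale (limma adjusted p = 0.0095). SAS2 (log2 -0.43), SAS4 (-0.30) and SAS3 (0.29) were not called. HAT1 and HAT2, the pair that acetylates new histone H4, changed by -0.72 and -0.49 and RTT109, which acetylates new histone H3, by -0.63 on the log2 scale, none of them called. HAT1 read 41.6, 42.5 and 43.6 with air, and 18.0, 39.5 and 24.4 without, where culture 2 was close to the aerobic level.

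Among the listed genes of the Rpd3 and Hda1 deacetylases, only UME6 was called for oxygen. Of RPD3, its scaffold SIN3, the subunit SDS3 and the DNA-binding recruiter UME6, 1 of 4 fell. Subunits of Rpd3 complexes outside the list did fall: PHO23, SAP30, CTI6, RXT2, RXT3, UME1 and RCO1 were called as lower. They are among 15 other subunits of the Rpd3, Set3 and Sum1 complexes, of which 9 fell and none rose (60% lower, against 23.3% of all probe sets). UME6, which holds early meiotic genes off, read 78.8, 110.2 and 62.5 with air and 51.8, 33.8 and 53.6 without. The groups did not overlap (log2 -0.84 ± 0.24, limma adjusted p = 0.0232), but the call ended without aerobic reference culture 1 or 2 or anaerobic reference culture 2. RPD3 itself read 123.9, 127.0 and 160.1 with air and 119.2, 100.4 and 102.5 without, and was not called (log2 -0.35, limma adjusted p = 0.0523). HDA1, HDA2 and HDA3, the catalytic and the paired accessory subunits of the Hda1 complex, changed by -0.17, -0.19 and -0.53 on the log2 scale, none of them called. For SDS3 the array and the group cannot be told apart: it was under background on all 3 IMZ305 arrays, and read 0.3 to 1.4 on the 5 arrays with a low BioB signal and 4.3 to 8.5 on the other 7.

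Set3 and the deacetylase Hos2 form a complex with the sirtuin Hst1, and Hos1 and Hos3 are deacetylases outside it. SET3 (YKR029C) read 130.9, 117.5 and 178.8 in the aerobic reference and 67.3, 76.3 and 65.1 in the anaerobic reference. Every aerobic value was above every anaerobic one, and SET3 fell 2.02-fold (log2 -1.01 ± 0.20, limma adjusted p = 0.00371). HOS2 (YGL194C) read 30.4, 30.1 and 31.3 with air and 17.2, 12.4 and 10.4 without. It fell 2.35-fold (log2 -1.23 ± 0.22, limma adjusted p = 0.00197). HOS3 (YPL116W) read 43.7, 44.6 and 54.6 with air and 32.5, 27.7 and 23.7 without, again without overlap. It fell by 0.77 on the log2 scale (limma adjusted p = 0.00489), although with quantile normalization the adjusted p was 0.0517. HOS1, the deacetylase of cohesin, had a change of 0.03 with a standard error of 0.35 and was not above background on 1 array.

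Among the silencing genes and sirtuins, SIR4, SIR3 and HST4 fell without oxygen and SIR2, HST1, HST2 and HST3 were not called. SIR4 (YDR227W) read 40.3, 29.3 and 42.9 with air and 17.9, 14.0 and 9.6 without. Its fall was 2.76-fold (log2 -1.47 ± 0.26, limma adjusted p = 0.002). SIR3, which spreads along deacetylated nucleosomes, read 112.7, 111.6 and 102.3 with air and 86.3, 82.0 and 75.1 without. The groups were tight and did not overlap, so that a change of -0.43 ± 0.10 on the log2 scale was called (limma adjusted p = 0.00851), but with each array centred on its median the change was -0.03 (adjusted p = 0.844). HST4, a sirtuin that deacetylates histone H3, read 47.0, 43.7 and 45.4 with air and 22.3, 27.3 and 17.8 without. It fell 2.05-fold (log2 -1.04 ± 0.16, limma adjusted p = 0.000828). SIR2 read 77.5, 57.0 and 84.1 with air and 53.1, 74.9 and 57.6 without, ranges that overlap, with a 95% interval of its log2 change from -0.70 to 0.23. HST1 read 431.3 to 444.2 in the anaerobic reference, inside the 357.6 to 511.9 of the aerobic one (log2 -0.03, 95% interval -0.32 to 0.26).

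IMZ305 was compared with the reference with air to ask what the eutE route, in a strain without its own acetaldehyde dehydrogenases and acetyl-CoA synthetases, does to these genes. Of the 38 genes 1, EAF3, fell, and none rose. EAF3 read 798.7, 801.6 and 931.7 in the reference and 567.8, 590.3 and 625.2 in IMZ305. The groups did not overlap, and the fall was 1.42-fold (log2 -0.50 ± 0.10, limma adjusted p = 0.0108). It was called on leaving out any 1 array. This comparison and the oxygen comparison share the aerobic reference arrays. The 1 called gene is 2.63% of the 38, and 14.4% of all probe sets were called in this comparison, 8.3% as lower and 6.09% as higher. At an unadjusted p under 0.05, 11 of the 38 genes passed (28.9%, against 28.2% of all probe sets), 9 of them lower and 2 higher (23.7% and 5.26%, against 15% and 13.2% of all probe sets).

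Below the threshold most changes in IMZ305 were small and negative. Of the 38 genes 26 had a log2 change below 0 (68.4%, against 49.8% of all probe sets), and the median of the 38 was -0.25 against 0. All 3 IMZ305 arrays read below all 3 reference arrays in 11 genes (28.9%), against 16.6% of all probe sets. The 11 were EAF3, ADA2, SAS4, RPD3, HDA1, HDA3, HOS2, HOS3, SET3, SIR4 and HST4. All 3 read above in SPT8 and HAT1 (5.26%), against 15% of all probe sets. The median was -0.17 without aerobic reference culture 3, the array with the higher BioB signal, and -0.12 without IMZ305 culture 1.

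Of these 11 genes, ADA2, the partner of Gcn5 in SAGA, had the largest change. It read 46.0, 50.9 and 92.4 in the reference and 34.2, 32.5 and 41.7 in IMZ305, so that aerobic reference culture 3 was far above its own group and the groups still did not overlap (log2 -0.74 ± 0.25, limma adjusted p = 0.0874). SIR4 read 18.5, 26.9 and 23.8 in IMZ305, under the 29.3 to 42.9 of the reference (log2 -0.70 ± 0.26, limma adjusted p = 0.109). SET3 read 70.6, 95.2 and 114.3 in IMZ305 against 117.5 to 178.8 in the reference (log2 -0.61 ± 0.20, limma adjusted p = 0.0726). SET3 was called without IMZ305 culture 3, and SAS4 without IMZ383 culture 2. RPD3 read 99.0, 108.3 and 112.6 in IMZ305 against 123.9 to 160.1, a log2 change of -0.35 ± 0.12 (limma adjusted p = 0.0857). HAT1 went the other way, with 55.1, 78.3 and 74.5 in IMZ305 above the 41.6 to 43.6 of the reference (log2 0.69 ± 0.28, limma adjusted p = 0.147). For 27 of the 37 genes not called, the 95% interval lay within a 2-fold change in either direction, among them GCN5, ESA1, RPD3 and SIR2. The interval reached past 2-fold for ADA2, SPT20, YNG2, HAT1, SDS3, HDA2, HDA3, SET3, SIR4 and HST3.

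IMZ383 was compared with the reference without oxygen to ask what the pyruvate formate-lyase route in a strain without acetyl-CoA synthetases does. EPL1 of NuA4 and SET3 of the Set3 complex rose, and none of the 38 fell. EPL1 read 14.8, 12.8 and 9.3 in the reference and 37.2, 39.9 and 28.3 in IMZ383. The groups lay well apart, and the rise was 2.88-fold (log2 1.53 ± 0.24, limma adjusted p = 0.0106). EPL1 was called on leaving out any 1 array, but not in a fit to only the 2 groups compared (limma adjusted p = 0.0752). SET3 read 67.3, 76.3 and 65.1 in the reference and 131.5, 138.1 and 154.6 in IMZ383. The rise was 2.03-fold (log2 1.02 ± 0.20, limma adjusted p = 0.0318), and the call ended without IMZ305 culture 2 or any 1 of the 6 anaerobic cultures. Without anaerobic reference culture 1, HOS2 was called in its place, and without IMZ305 culture 1 it was called as well.

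The 2 called genes are 5.26% of the 38, against 2.29% of all probe sets, of which 1.69% were higher and 0.593% lower. At an unadjusted p under 0.05, 8 genes were higher (21.1%, against 10.4% of all probe sets) and none lower (against 4.95%). The other 6 were ESA1, SAS5, HDA1, HOS2, HOS3 and HST4. All 3 IMZ383 arrays read above all 3 reference arrays in 10 genes (26.3%, against 13.4% of all probe sets), and below them in none (against 6.98%). The 10 were ADA2, SPT20, ESA1, EPL1, EAF3, SAS5, HDA1, HOS2, HOS3 and SET3. The median log2 change was 0.24, against 0.06 for all probe sets. The share of calls over all probe sets that were rises was 74.1% with the authors' scaling, 60.4% with quantile normalization and 55.4% with arrays centred on their median. EPL1 and SET3 were called as higher under all 3.

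HOS2, the deacetylase that works with Set3, came nearest to the threshold among the others. It read 17.2, 12.4 and 10.4 in the reference and 28.3, 21.7 and 25.4 in IMZ383, with no overlap (log2 0.94 ± 0.22, limma adjusted p = 0.0616). HDA1 read 19.0, 17.8 and 15.5 in the reference and 26.3, 24.2 and 28.2 in IMZ383 (log2 0.59 ± 0.17, limma adjusted p = 0.123). ESA1 read 46.9, 49.3 and 40.5 against 57.2, 70.6 and 66.2, also without overlap (log2 0.50 ± 0.16, limma adjusted p = 0.15). For 33 of the 36 genes not called the 95% interval lay within a 2-fold change, the exceptions being SDS3, HOS2 and HST3. The ACT1 3' to 5' ratio did not overlap between these groups. With that ratio as a covariate, an alternative chosen after the data were seen, no member was called: EPL1 had a log2 change of 1.62 (adjusted p = 0.0595) and SET3 of 1.08 (adjusted p = 0.114). Over all probe sets the same fit called 95 as higher and 29 as lower, in place of 157 and 55.

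**Figure D3:**
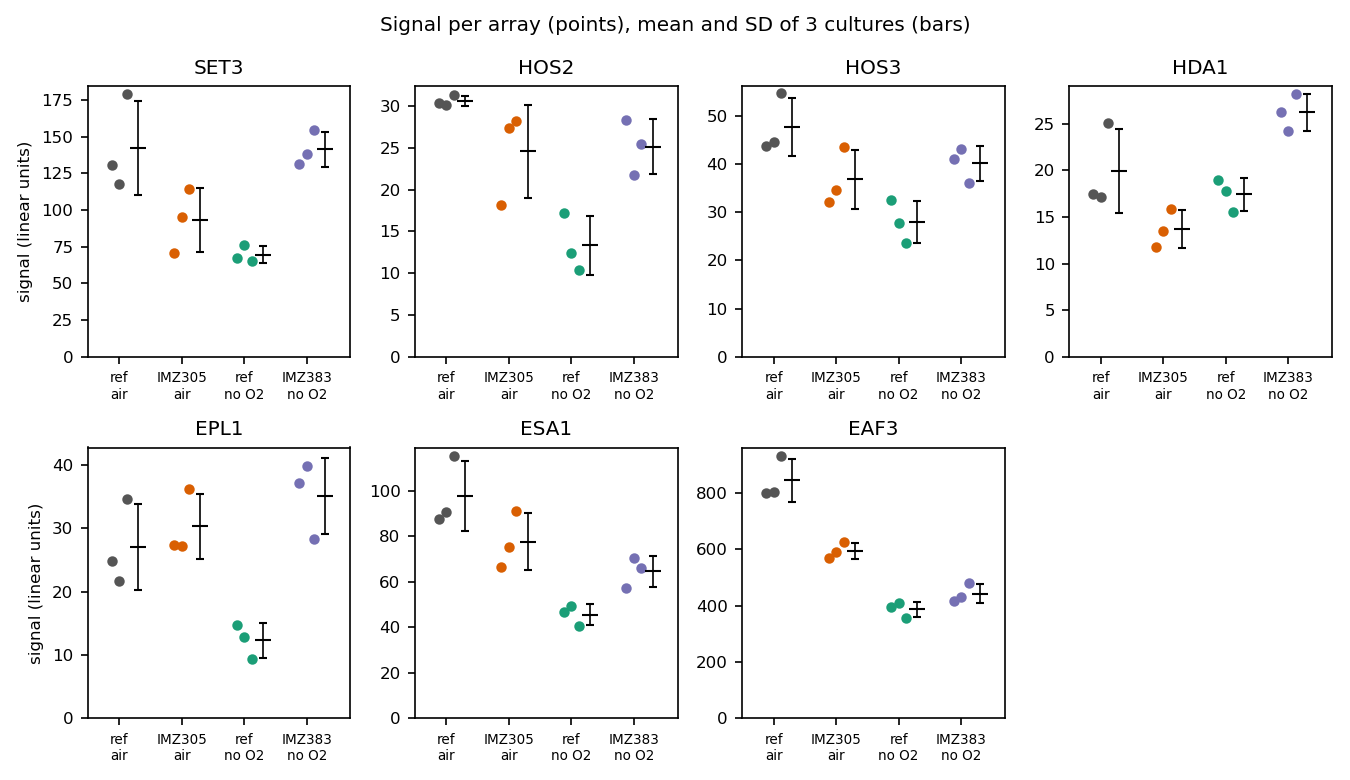
Signal of 7 genes on each array (points, linear units) in the aerobic reference, IMZ305, the anaerobic reference and IMZ383, from left to right, with the mean and SD of 3 cultures as bars; each panel has its own axis from 0. In IMZ383, SET3, HOS2, HOS3, HDA1, EPL1, ESA1 and EAF3 lie above the anaerobic reference.

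Set beside the aerobic reference, the level in IMZ383 differed from gene to gene. This is a description, since strain and oxygen differ together and the oxygen and IMZ383 comparisons share the anaerobic reference arrays. The mean signal of SET3 in IMZ383 was 99.3% of that in the aerobic reference, where the anaerobic reference held 48.9%. For EPL1 the values were 130% and 45.4%, and for HOS2 82.1% and 43.6%. ESA1 was at 66.1% and 46.6%, and EAF3 at 52.4% and 45.8%. SET3 and EPL1 thus read in IMZ383 at or above their aerobic reference level, and ESA1 and EAF3 lay between.

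The strain effects were then compared with each other, as the change in IMZ383 without oxygen minus the change in IMZ305 with air, which rest on different arrays. The effect was higher in IMZ383 for 7 of the 38 genes and lower for none. They were SET3, HOS2 and HOS3, the catalytic deacetylase subunit HDA1, and EPL1, ESA1 and EAF3 of NuA4. The 7 are 18.4% of the 38, against 8.87% of all probe sets, of which 5.92% were higher and 2.95% lower. The median difference was 0.49 on the log2 scale, against 0.08 for all probe sets. With arrays centred on their median it was 0.32 against -0.06, and the share of all calls that were higher went from 66.7% to 56.2% with quantile normalization and 50.5% with centring. Of the 7, all but ESA1 were called under all 3 scalings.

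SET3 had the largest of these differences. Its log2 change was 1.02 in IMZ383 and -0.61 in IMZ305, a difference of 1.64 ± 0.28 (limma adjusted p = 0.00841). EAF3 had changes of 0.19 and -0.50 and a difference of 0.70 ± 0.14 (limma adjusted p = 0.0157). Both were called on leaving out any 1 array. HDA1 had changes of 0.59 and -0.52, a difference of 1.11 ± 0.24 (limma adjusted p = 0.0221), although neither change alone was called. For HOS2 the difference was 1.28 ± 0.30 (limma adjusted p = 0.0331), for EPL1 1.35 ± 0.33 (0.0383), for HOS3 0.91 ± 0.23 (0.0393) and for ESA1 0.84 ± 0.22 (0.0477). EPL1 alone among the 7 had a change above 0 in IMZ305 as well (0.18).

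These counts depended on single arrays. Without IMZ305 culture 1, IMZ305 culture 2 or anaerobic reference culture 3, 2 genes were called. Without aerobic reference culture 1 or 3 or IMZ383 culture 1 the count was 3, without anaerobic reference culture 2 or IMZ383 culture 2 it was 4, and it was 5 to 8 without any other array. With the ACT1 ratio as a covariate, SET3 alone was called (log2 1.71, adjusted p = 0.0326), while EAF3 had an adjusted p of 0.0506.

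**Figure D4:**
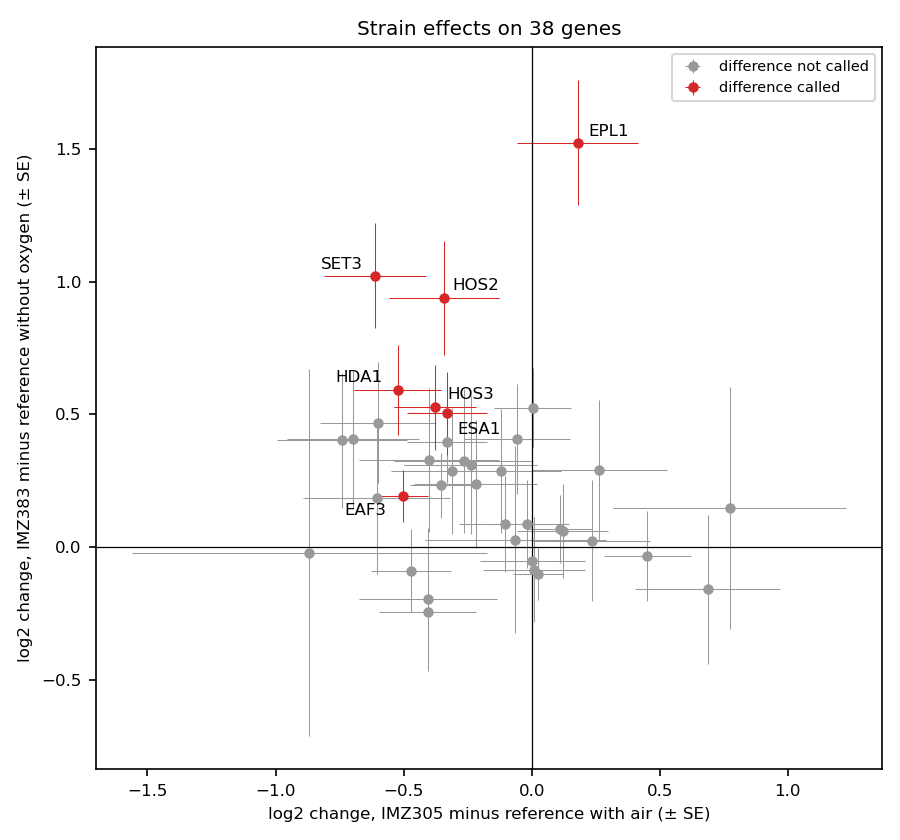
Log2 change of each of the 38 genes in IMZ305 with air (x axis) and in IMZ383 without oxygen (y axis), each against the reference in the same condition, with standard errors from the limma fit as bars; the 7 genes whose difference was called are red and named. The upper left of the plot, lower in IMZ305 and higher in IMZ383, holds 22 of the 38 genes, and EPL1, at 0.18 and 1.53, is the called gene outside it.

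By sign alone, 22 of the 38 genes (57.9%) had a change below 0 in IMZ305 and above 0 in IMZ383, against 30.2% of all probe sets. The reverse held for 5 genes (13.2%, against 21.6%), both changes were below 0 in 4 (10.5%, against 19.4%) and above 0 in 7 (18.4%, against 26.8%). The 38 genes were chosen as enzymes and their complex partners and are not independent of each other. All 5 genes grouped under NuA4 and all 4 genes of the Hos and Set3 group had a difference above 0, with medians of 0.79 and 1.09. In the sirtuin and Sir group 3 of 7 had one, with a median of -0.04. Of 10 other NuA4 and NuA3 subunits, which are not among the 38, none had a called difference, and their median was 0.19. ARP4, ACT1, EAF6 and TAF14 of these were below 0 and the rest above.

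HST1 held nearly the same level in all 4 groups, and GCN5, SIR2 and SIR3 differed little between the strains in each condition. In the anaerobic reference GCN5 and SIR2 read 84% and 84.9% of their aerobic reference mean, neither of them called. For SIR3 this was 74.5%, which was called as lower. HST1, the sirtuin that represses middle sporulation and NAD synthesis genes, had group means of 450 ± 81.4, 480 ± 14.9, 436 ± 7.01 and 458 ± 31.7 (SD, n = 3) in the aerobic reference, IMZ305, the anaerobic reference and IMZ383. The 95% intervals of its changes were -0.18 to 0.40 in IMZ305 and -0.22 to 0.36 in IMZ383. GCN5 had means of 48.2 ± 11.3, 47.8 ± 5.74, 40.5 ± 4.60 and 38.4 ± 6.82. SIR2, the deacetylase of silent chromatin, had means of 72.9 ± 14.1, 72.1 ± 3.40, 61.9 ± 11.5 and 60.2 ± 14.3. In each strain comparison the log2 change of SIR2 lay within 0.06 of 0, with intervals from -0.46 to 0.47 in IMZ305 and from -0.51 to 0.41 in IMZ383. SIR3 was measured with the smallest standard error of the 38 (0.10), and its intervals in the strain comparisons ran from -0.19 to 0.25 and from -0.32 to 0.12.

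Other subunits of the same complexes, from lists of genes that are not among the 38, were read in the same way. Of 15 other subunits of the Rpd3, Set3 and Sum1 complexes, 9 fell without oxygen (PHO23, SAP30, CTI6, RXT2, RXT3, UME1, RCO1, HOS4 and SIF2) and none rose, with a median log2 change of -0.54 against -0.18 for all probe sets, of which 23.3% fell. Among them HOS4 and SIF2 are partners of Set3 and Hos2, and fell by 0.64 and 0.65 (limma adjusted p = 0.0434 and 0.00724). SNT1 and CPR1, also partners of Set3, were not called, with log2 changes of -0.38 and 0.03 (limma adjusted p = 0.0777 and 0.891). In IMZ305, PHO23, CTI6, RXT3 and UME1 fell (26.7%, against 8.3% of all probe sets). CTI6, a plant homeodomain subunit of the large Rpd3 complex, fell by 1.08 there and had a difference between the strain effects of 1.42 (limma adjusted p = 0.00885). Of 10 other NuA4 and NuA3 subunits, YAF9, EAF5, YNG1 and NTO1 fell without oxygen (40%, against 23.3% of all probe sets) and none rose. The rest, ARP4, ACT1, SWC4, EAF6, EAF7 and TAF14, were not called. YNG1 and NTO1, both of NuA3, fell by 1.62 and 1.52. EAF5 fell in IMZ305 as well (10%, against 8.3%). Of 12 other SAGA and ADA subunits measured, 1 rose (HFI1) and 1 fell (SGF11) without oxygen (8.33% each, against 11% and 23.3%). In IMZ305 UBP8 rose while SGF29 and CHD1 fell (8.33% and 16.7%, against 6.09% and 8.3%). In IMZ383 none of the genes in these 3 lists was called.

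Of 13 genes of histone methylation, SET1, SPP1, JHD2, RPH1 and BRE1 fell without oxygen (38.5%, against 23.3% of all probe sets) and none rose. SET1 and SPP1 belong to the complex that methylates lysine 4 of histone H3, JHD2 and RPH1 encode demethylases, and BRE1 encodes the ubiquitin ligase of histone H2B. BRE1 fell in IMZ305 as well, by 0.50 on the log2 scale (7.69% of the 13, against 8.3% of all probe sets). Of 11 other silencing factors, ORC1, RAP1, ABF1 and YKU70 fell without oxygen (36.4%, against 23.3%), and ORC1 and DOT1 fell in IMZ305 (18.2%, against 8.3%). Of 15 histone chaperone genes, VPS75, MSI1 and HIR3 fell without oxygen, a share of 20% that was under the 23.3% of all probe sets. In IMZ305 RLF2 and MSI1 fell (13.3%, against 8.3%). Of 11 histone genes, 5 were matched to a probe set that reads no other gene. Among these HTB2, for histone H2B, fell in IMZ305 (20% of the 5, against 8.3% of all probe sets). It went from 548.8, 828.8 and 666.3 to 489.7, 486.9 and 410.7 (log2 -0.54, limma adjusted p = 0.049975). None of the 5 was called in the other comparisons.

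Among genes that these enzymes are known to repress, and genes of NAD salvage, the calls differed between lists. Of all probe sets, 11% rose and 23.3% fell without oxygen, and 6.09% rose and 8.3% fell in IMZ305. Of 14 early meiotic genes under Ume6, SPO1 fell without oxygen (7.14%), and ZIP1 and SPO1 fell in IMZ305 (14.3%). Of 10 middle sporulation genes under Sum1 and Hst1, SPS4 and SPR3 rose and SPS1 and SPR28 fell without oxygen (20% each way). SPR28 and CDA1 fell in IMZ305 (20%), and CDA2 rose (10%). There CDA2 rose by 0.93 and CDA1 fell by 2.40 on the log2 scale, although both encode chitin deacetylases of the spore wall. The IMZ305 signal of CDA1 was near background. Of 6 genes under Hst1, for NAD synthesis from tryptophan and for nicotinic acid uptake (TNA1), BNA2, BNA4 and TNA1 rose without oxygen (50%). Their log2 changes were 1.50, 0.55 and 1.36, none of the 6 fell, and HST1 was not called. In IMZ305 BNA1 fell (16.7%). Of 9 NAD salvage genes, NRT1 and URH1 rose and NMA1 and QNS1 fell without oxygen (22.2% each way). In IMZ305 NMA1 and URH1 rose (22.2%). None of the genes in these 4 lists was called in IMZ383.

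Genes at the ends of chromosomes, which Sir proteins can silence, were read from the 5 outermost genes at each end of the 16 chromosomes. Of these 160 genes, 67 were matched to such a probe set. Without oxygen 24 rose and 10 fell (35.8% and 14.9%, against 11% and 23.3% of all probe sets), and their median log2 change was 0.47 against -0.18 for all probe sets. Among the rises were 6 genes of the PAU family and 4 COS genes, and COS9 was among the falls. In IMZ305, 16 rose and 7 fell (23.9% and 10.4%, against 6.09% and 8.3% of all probe sets), with a median of 0.16. PAU3, PAU4, PAU15, PAU16 and PAU19 were among these rises, as were COS6, COS7, COS10 and COS12. In IMZ383 1 rose and 2 fell (1.49% and 2.99%, against 1.69% and 0.593%), with a median of -0.04. The PAU genes are near-identical and are known for anaerobic expression, so their probe sets cannot be told apart from one another. Of the silent mating genes 1 had a probe set of its own, HMRA1, which reads the same sequence at the active MAT locus of these MATa strains. It fell by 0.62 on the log2 scale without oxygen (limma adjusted p = 0.0288) and gives no measure of silencing.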

How the data were processed

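Total RNA of 12 chemostat cultures was read on 1 yeast Affymetrix array each, after labelling of 200 ng of RNA with a 3' in vitro transcription kit, per the labels' protocols. The deposited values are signal intensity per probe set on a linear scale, and their trimmed mean of 150.12 to 150.15 on every array shows that scaling to 1 level was done by the authors before deposition, so that a shift of all transcripts would not be seen. The software, probe summary and scaling settings are not given in the sources used here. Columns of other samples numbered 0. Gene names came from the platform annotation (6504 of 9275 yeast probe sets with 1 gene, 328 with several, 2443 with none), and gene order from the RefSeq table of assembly R64.

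Intensities were floored at 1.1 (the 10th percentile) and log2-transformed. A single model over all 12 arrays was fitted with limma (3.58.1, under R 4.3.3), with two-sided moderated tests and Benjamini-Hochberg adjustment over 9275 probe sets; a gene was called at an adjusted p under 0.05. The script was tested on simulated data. A fold is 2 raised to the log2 change. Called genes, then genes whose groups do not overlap, were named, and up to 4 called genes per related list by adjusted p; the naming of all called genes in small lists was chosen after their values were seen. The list held 1 gene more, which is not reported here. The 38 genes, the related lists and the tests were chosen with earlier results of these data known. Signals of near-identical genes cannot be separated. Alternatives were other scalings, floors, filters, probe-set choices, a culture-number block, a trended prior, array weights, stricter thresholds, a fit to only the groups compared, and leaving out each array.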

Additional observations from a re-analysis of the deposited data

Results flagged for a closer look

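For 7 of the 38 genes the strain effect without oxygen (IMZ383) differed from the strain effect with air (IMZ305) in limma's test of the difference itself, with adjusted p-values over all 9275 probe sets. The log2 difference was 1.64 for SET3 (adjusted p = 0.00841), 0.70 for EAF3 (0.0157), 1.11 for HDA1 (0.0221), 1.28 for HOS2 (0.0331), 1.35 for EPL1 (0.0383), 0.91 for HOS3 (0.0393) and 0.84 for ESA1 (0.0477). The 7 are 18.4% of the 38, against 8.87% of all probe sets. On leaving out 1 of the 12 arrays, ESA1 lost its call in 11 fits, EPL1, HOS2 and HOS3 in 8 each, and HDA1 in 3. SET3 and EAF3 kept theirs in each of these fits, and none of the 7 was called under every alternative. The strains, oxygen and feed differ together in this comparison and cannot be told apart.

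The same test picked out 8 genes of the related lists other than the subtelomeric one. Over all probe sets 5.92% had a higher and 2.95% a lower difference. In the lists with such genes, 6.67% to 16.7% were higher, and CDA2 was the only lower one (10% of its list). The lists of other NuA4 and NuA3 subunits, histones, histone chaperones, early meiotic genes and silent mating genes held none. Of the 67 subtelomeric genes measured, 5 had a higher and 10 a lower difference (7.46% and 14.9%). SGF29, a SAGA subunit, had a difference of 2.05 (adjusted p = 0.0238), with mean signals of 58.5 in the aerobic reference, 25.2 in IMZ305, 33.9 in the anaerobic reference and 64.6 in IMZ383. CTI6 of the Rpd3 complex had 1.42 (0.00885), ORC1, the origin recognition subunit that binds Sir1, had 0.79 (0.0285), and BRE1 had 0.68 (0.0481). CDA1 had 2.49 (0.00771) and its paralog CDA2 -1.18 (0.00755), in opposite directions, with the IMZ305 signal of CDA1 near background. BNA1 had 0.89 (0.0436), and PNC1, the nicotinamidase that relieves the inhibition of Sir2, had 0.72 (0.0179).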

How the results depend on the processing

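No gene called among the 38 changed its direction under any alternative. The recomputed values were log2 changes of called genes, counts of called genes and median changes. Of these, 746 stayed the same, which for a count or a median means close to the main setting. In 127 a gene lost its call, and in 53 a count or a median moved. On leaving out 1 array, the genes called lower in IMZ305 numbered 1 to 2 and those called higher 0 to 0 (median log2 change -0.29 to -0.12); those called higher in IMZ383 numbered 1 to 3 and lower 0 to 0 (0.16 to 0.26); those called lower without oxygen numbered 11 to 15 and higher 0 to 1 (-0.46 to -0.36); and those with a higher difference numbered 2 to 8 and lower 0 to 0 (0.38 to 0.58). In IMZ305, where 1 gene fell, 2 did with quantile normalization (HDA1 added), 4 with array weights (ADA2, HDA1 and SET3 added), 2 in a fit to only the 2 groups compared (SAS4 added), and 0 at an adjusted p under 0.005 or at 2-fold or more. In IMZ383, where 2 rose, 5 did with array weights, 1 in the fit to 2 groups (EPL1 lost), and 0 under the stricter threshold or with the ACT1 covariate. Without oxygen, where 13 fell, 7 did with quantile normalization, 8 with centring, 8 under the stricter threshold and 8 at 2-fold or more, and the median went from -0.43 to -0.0482 and -0.0341 under both scalings. The rises, 1 in the main setting, were 2 with quantile normalization, 3 with centring, and 0 with no floor, under the stricter threshold, at 2-fold or more, in the fit to 2 groups or with the ACT1 covariate. Over all probe sets, 2157 were called lower without oxygen in the main setting, 1367 with quantile normalization and 1097 with centring. Those called higher numbered 1018, 1309 and 1959 in the same order. Of the differences, 7 in the main setting, 11 were called with array weights, 4 at 2-fold or more, 1 with the ACT1 covariate and 0 under the stricter threshold, and the median was 0.32 with centring. The cause of these shifts was not tested. Culture numbers do not pair the samples, since the deviations of same-numbered cultures from their group means had correlations of -0.03 to 0.05. With the culture number as a replicate block, 0 genes rose without oxygen and 3 differences were called. Arrays carry no counts, so depth sets no limit, and for SDS3, HOS1 and HST3 the signal over background does.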

Other observations

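CDA1 and CDA2, adjacent paralogs for chitin deacetylases that are known from sporulation, moved apart in IMZ305. CDA1 had a mean of 28.0 in the aerobic reference and 5.53 in IMZ305, and 32.2 and 34.3 in the anaerobic reference and IMZ383. CDA2 had means of 58.8, 112, 52.8 and 44.7 in the same order. IMZ305 was thus the group that differed from the other 3 for both genes, in opposite directions. The IMZ305 mean of CDA1 lay within the 2.6 to 7.5 taken as background, so the size of its fall is uncertain.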
